A study of Mus musculus and Sus scrofa with 30 samples.

Results

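Differentiating 3T3-L1 cells that received dicoumarol together with magnolol were compared with cells that received DMSO, the vehicle of the study. The comparison took 6 of the 30 libraries of the series, 3 per group, chosen by their labels: 3T3_L1_D+M replicates 1 to 3 and 3T3_L1_Vehicle replicates 1 to 3. 3T3-L1 is an established line of mouse embryonic fibroblasts, labelled as fibroblast, and all groups come from this 1 line. Every culture, vehicle included, was induced in medium with 10% fetal bovine serum that held insulin at 0.75 µg/mL, dexamethasone at 75 nM and, at 37.5 µM, isobutyl methylxanthine (IBMX, an inhibitor of the enzymes that break down cyclic AMP), and was harvested on day 5. The compounds were present during differentiation, and no dose of them is given in the sources used here. Another 9 libraries of the 3T3-L1 table, 3 each with dicoumarol alone, magnolol alone and rosiglitazone, entered the model that estimates the spread and are used below for side-by-side values. Polyadenylated RNA was sequenced in bulk, and nothing in the labels says that replicates came from separate cultures, so p-values measure only the spread between these samples, which may be technical.

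Adipocytes form when hormones such as insulin and glucocorticoid, with raised cyclic AMP, switch a preadipocyte to a programme run by the transcription factors PPARγ (Pparg) and C/EBPα (Cebpa), which then turn on genes for taking up, making, storing and releasing fat. The stored triglyceride sits in lipid droplets coated with perilipins and enlarged by CIDE proteins, while genes of the fibroblast state, such as those for matrix and contractile proteins, are turned down. Dicoumarol is a coumarin anticoagulant that blocks the recycling of vitamin K and inhibits the quinone reductase NQO1. Magnolol is a phenolic compound of magnolia bark, and rosiglitazone is a drug that activates PPARγ.

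The upstream sequences below belong to genes whose values are given further on. They are the 250 bases before an annotated transcription start, from RefSeq on build GRCm38.p6, 5′ to 3′ on the gene's strand. Cidec carries the largest rise and Mmp3 the largest fall among the genes that the naming rule takes. Adig is another of the largest rises, and Aifm2 is the member of the vitamin K list that rose. The promoters shown and their motifs were chosen after the matches were seen. Capitals mark the C/EBP core TTGCNNAA in Cidec (the second of its 2 annotated starts, chr6:113434765-113435014, minus strand, 198 bases before the start), the nuclear receptor half-site AGGTCA in Adig (chr2:158502362-158502611, plus strand, 154 bases before the start) and in Aifm2 (chr10:61720399-61720648, plus strand, 212 and 34 bases before the start), and the AP-1 site TGANTCA in Mmp3 (chr9:7445572-7445821, plus strand, 46 bases before the start).
Cidec: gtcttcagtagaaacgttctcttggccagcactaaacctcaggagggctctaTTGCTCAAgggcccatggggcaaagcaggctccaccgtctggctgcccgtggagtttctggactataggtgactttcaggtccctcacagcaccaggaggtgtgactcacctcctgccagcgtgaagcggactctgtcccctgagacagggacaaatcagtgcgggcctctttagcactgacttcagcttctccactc
Adig: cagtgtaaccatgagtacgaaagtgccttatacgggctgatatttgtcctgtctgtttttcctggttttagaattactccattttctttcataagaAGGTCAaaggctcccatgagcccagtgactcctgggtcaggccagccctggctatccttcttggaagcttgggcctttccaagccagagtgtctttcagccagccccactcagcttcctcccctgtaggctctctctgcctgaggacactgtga
Aifm2: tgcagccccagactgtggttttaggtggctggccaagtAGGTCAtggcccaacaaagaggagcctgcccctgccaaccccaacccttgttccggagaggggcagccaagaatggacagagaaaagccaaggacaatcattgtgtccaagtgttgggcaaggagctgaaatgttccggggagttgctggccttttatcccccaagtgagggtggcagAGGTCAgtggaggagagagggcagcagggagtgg
Mmp3: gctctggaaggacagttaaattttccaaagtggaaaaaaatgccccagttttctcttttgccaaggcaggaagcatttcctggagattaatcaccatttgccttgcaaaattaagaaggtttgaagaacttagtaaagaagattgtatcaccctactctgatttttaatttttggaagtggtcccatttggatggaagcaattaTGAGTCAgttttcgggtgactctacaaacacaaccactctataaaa
The window of the other Cidec start held no match to the C/EBP core. Only the motif named for each gene is in capitals, and lower-case letters hold further matches. The printed Cidec window also holds a match to TGANTCA. The Mmp3 window also holds a match to TTGCNNAA, and so does the Aifm2 window, on the other strand.

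These letters were common in windows of the same length. On both strands, AGGTCA was found in 16.8% of the 465 genes called higher with a window, 15.3% of the 163 called lower, 12.6% of the 10167 tested symbols with a window and 15.8% of all 27025 genes of the RefSeq table. TTGCNNAA was found in 10.1% of the genes called higher, 12.3% of those called lower, 8.88% of those tested and 10.8% of all. TGANTCA was found in 7.1%, 12.3%, 5.44% and 7.82% in the same order. A match is a description of letters in the window and not evidence of binding.

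The combination raised 607 genes and lowered 214 against vehicle. Values are size-factor normalized counts, that is, gene counts divided by 1 scaling factor per library, and tests were run with limma on log2(value + 1), two-sided, with Benjamini-Hochberg adjustment over the 15723 genes with a mean of at least 10. At an adjusted p under 0.05, 5.22% of genes tested were called, 3.86% higher and 1.36% lower. Calls of at least 2-fold numbered 159 higher (1.01%) and 31 lower (0.197%). The groups did not overlap for 11.5% of genes with the combination above and 9.44% with it below. Over all genes tested the median log2 fold change was −0.01, 48.2% of genes lay above 0, and the SE had a median of 0.15. Of the called genes, 815 had 3 combination libraries on one side of all 3 vehicle libraries, and 6 overlapped. For the lists below, counts at an unadjusted p under 0.05 have no share over all genes beside them. Those counts are descriptions and cannot show whether a list differs from all genes.

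The replicate numbers marked libraries that deviated together. A fit with the number as a block called 2124 genes (13.5%), among them all 821 of the fit without it. Of the 2124, 1262 were higher (8.03%) and 862 lower (5.48%), the shares to set beside block counts of the lists below. Single libraries moved the count of the fit without the block. Leaving out combination replicate 1 left 286 calls, combination replicate 3 490, vehicle replicate 2 525 and vehicle replicate 3 495. In each of the 6 fits that left out 1 library all 821 genes had the same direction. For the 815 without overlap this was fixed in advance, because leaving out 1 library cannot reverse separated groups. Of the 821, 273 (222 higher, 51 lower) were called in every such fit.

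**Figure D1:**
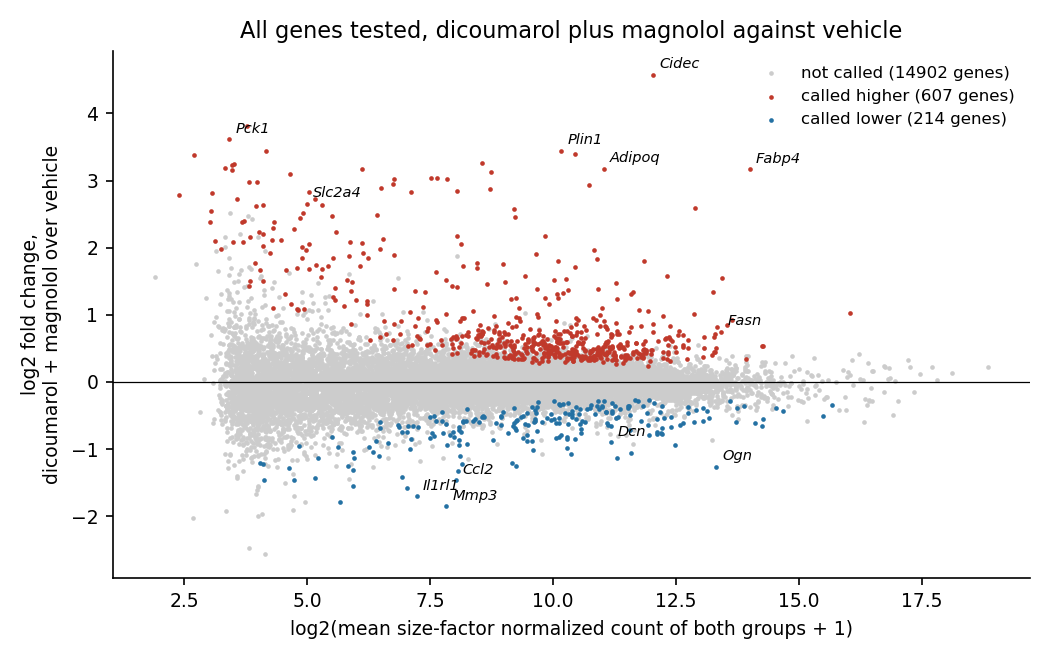
Each point is 1 of the 15723 genes tested. The horizontal axis is log2 of the mean normalized count of both groups plus 1, and the vertical axis is the log2 fold change of the combination over vehicle. Red points (607) were called higher and blue points (214) lower at an adjusted p under 0.05, and grey points were not called. The rises reach 4.58 and the falls −1.85.

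The libraries were of similar depth. By the step between low values, the 6 libraries held an estimated 22.9 to 30.7 M reads, and mitochondrial genes took 5.22% to 7.69% of their normalized counts. Among the 6 libraries principal component 1, with 41.7% of the variance, separated the groups, with the vehicle libraries at −12.9, −32.9 and −23.8 and the combination libraries at 32.8, 11.3 and 25.4. The summed level of 10 adipocyte markers was 61623, 43661 and 43483 in vehicle replicates 1 to 3 and 181846, 114952 and 123716 with the combination. Most of that sum was Lpl, at a mean of 44013 in vehicle and 90835 with the combination. In both groups the sum was highest in replicate 1, but single markers differed. With the combination, Cd36 was highest in replicate 3. The summed level of 8 preadipocyte and fibroblast markers was 235276 to 274602 in vehicle and 181068 to 209662 with the combination. All 10 adipocyte markers were tested and 9 rose. Of the 8 fibroblast markers 2 fell, 1 without vehicle replicate 1 or 2 and 0 without combination replicate 1, while the replicate block called 5 lower. In bulk RNA, fewer cells of a type and less RNA per cell cannot be told apart. Over the 6 libraries the summed levels were 7.0 to 20.5 for endothelial markers, with Kdr at 0 in 5 libraries, 0 to 6.0 for epithelial markers and 72.8 to 115 for skeletal muscle markers. Osteoblast and chondrocyte markers summed to 4109 to 4276 in vehicle and 3369 to 3873 with the combination. Most of that sum was Sox9, a factor of chondrocytes that other cells also make, at a mean of 3496 and 2882, while Acan and Bglap, defining genes of cartilage and bone, had group means under 2. Of 3 such markers tested none was called with limma, 1 higher and 1 lower had an unadjusted p under 0.05, and the block called 1 higher and 1 lower.

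The largest rise was that of Cidec, whose product enlarges lipid droplets. It was at 815, 186 and 201 in the vehicle libraries and at 10752, 4614 and 8449 with the combination. Every combination library lay above every vehicle library, and vehicle replicate 1 stood above the other vehicle libraries. The log2 fold change was 4.58 (SE 0.53, limma adjusted p = 0.000316), 23.9-fold on the log2(value + 1) scale. Plin1, the perilipin that coats droplets and gates fat release in adipocytes, went from 306, 114 and 184 to 2627, 1421 and 2252, with no overlap. Its log2 fold change was 3.45 (SE 0.38, limma adjusted p = 0.0002). G0s2, an inhibitor of the triglyceride lipase ATGL, was at 52.6, 8.56 and 22.1 in vehicle and at 240, 106 and 212 with the combination (log2 fold change 2.95, adjusted p = 0.00433). Of 10 droplet genes tested, 7 rose and none fell, with a median log2 fold change of 0.72 against −0.01 over all genes. Plin3, a droplet coat protein that most cells make, was at 4000 ± 258 (SD, n = 3) in vehicle and 3520 ± 137 with the combination and did not pass the test (adjusted p = 0.299); it was named after its values were seen. Cidea, a droplet gene typical of brown fat, had under 1 normalized count in each of the 6 libraries and was not tested.

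**Figure D2:**
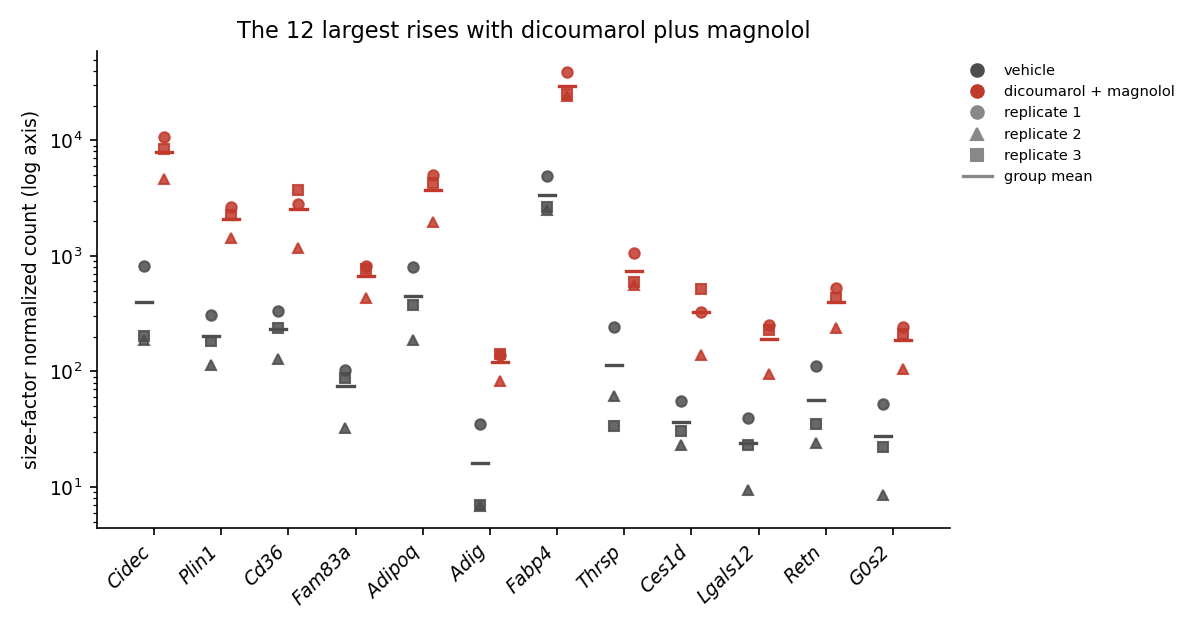
Size-factor normalized counts on a log axis for the 12 largest rises under the naming rule, with 1 symbol per library (grey vehicle, red dicoumarol plus magnolol; the shape gives the replicate number) and a bar at the group mean. All 3 red symbols lie above all 3 grey symbols for each gene, as the naming rule requires, and Fabp4 reaches 38660.

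Several of the other large rises were genes of mature adipocytes. Cd36, the fatty acid transporter at the cell surface, was at 335, 129 and 238 in vehicle and at 2795, 1162 and 3718 with the combination (log2 fold change 3.39, SE 0.50, limma adjusted p = 0.00115). Fabp4, which carries fatty acids inside adipocytes, was at 4942, 2489 and 2627 and then at 38660, 24082 and 25156 (3.17, SE 0.32, adjusted p = 7.56e-05). For both genes the groups were well apart. Acsl1, which activates fatty acids as coenzyme A esters, rose by 2.59 (SE 0.34, limma adjusted p = 0.000725), from 2112 ± 761 (SD, n = 3) to 12991 ± 5323. Lpl, the secreted lipase that frees fatty acids from lipoproteins, was at 53196, 39958 and 38886 and then at 117594, 79244 and 75668, a log2 fold change of 1.03 (adjusted p = 0.0162). Its call was lost without combination replicate 1 or vehicle replicate 2 or 3 (adjusted p 0.0632 to 0.116). Of the 13 uptake and activation genes tested 6 rose and none fell (median 0.19), and Vldlr, a lipoprotein receptor, was at 9354 ± 1367 (SD, n = 3) in vehicle and 8404 ± 279 with the combination.

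Fam83a, a signalling scaffold, went from 103, 32.5 and 87.2 to 814, 433 and 775 (log2 fold change 3.27, limma adjusted p = 0.000725). Adig, a small protein of adipocytes whose upstream window is printed above, was at 34.7, 6.85 and 6.97 in vehicle and at 138, 82.2 and 141 with the combination (3.17, adjusted p = 0.00126). Ces1d, a carboxylesterase that hydrolyses triglyceride, was at 55.2, 23.1 and 30.2 and then at 330, 138 and 514 (3.04, adjusted p = 0.00211). Lgals12, a galectin of lipid droplets, was at 39.2, 9.41 and 23.2 and then at 252, 94.5 and 226 (3.03, adjusted p = 0.00236). Replicate 2 was the lowest combination library for all 4 genes.

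Both master transcription factors of the programme rose, and Cebpa had the larger log2 fold change. Pparg was at 1353, 1149 and 1247 in vehicle and at 2192, 1700 and 2006 with the combination. The groups did not overlap, and the log2 fold change was 0.65 (SE 0.13, limma adjusted p = 0.00582). Cebpa was at 371, 204 and 443 and then at 1399, 777 and 1631, a log2 fold change of 1.90 (SE 0.39, adjusted p = 0.00866). Within the replicate numbers the Cebpa difference was 1.91, 1.93 and 1.88. Leaving out combination replicate 1 ended both calls (limma adjusted p = 0.0529 for Pparg and 0.0583 for Cebpa). The difference between the 2 genes' fold changes was not tested.

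Cebpb, which acts in the first days of differentiation, was at 2992 ± 322 (SD, n = 3) in vehicle and 2833 ± 538 with the combination, and the groups overlapped (limma adjusted p = 0.861). Ppargc1b, a coactivator of mitochondrial genes, rose by 1.90 on the log2 scale (SE 0.26, limma adjusted p = 0.000912), from 45.3 ± 8.81 to 172 ± 34.2 (SD, n = 3). Nr1h3, the sterol receptor LXRα, was at 139, 100 and 151 and then at 526, 287 and 515 (1.73, adjusted p = 0.00166). Of 19 factors tested, 9 rose and 1 fell, with a median of 0.50. The factor that fell was Klf4, at 1498, 1767 and 1526 in vehicle and at 761, 1046 and 851 with the combination (−0.86, adjusted p = 0.00464). Klf15, a factor that acts late in adipogenesis, was at 11.6, 1.71 and 8.14 and then at 37.5, 18.0 and 23.8 and was called only with the replicate block (limma adjusted p = 0.0704 without it, 0.00031 with it). Klf4 and Klf15 were named after their values were seen.

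Hormones secreted by fat cells rose as well. Adipoq, the gene of adiponectin, was at 794, 187 and 379 in vehicle and at 4965, 1982 and 4264 with the combination (log2 fold change 3.18, SE 0.53, limma adjusted p = 0.00229). Retn, the gene of resistin, was at 112, 24.0 and 34.9 and then at 524, 239 and 431 (3.02, SE 0.51, adjusted p = 0.00256). Vehicle replicate 1 was the highest vehicle library for both, and it stayed below the lowest combination library. Angptl4, a secreted inhibitor of lipoprotein lipase, was at 1384, 1203 and 1353 and then at 4262, 3782 and 2983 (1.47, SE 0.15, adjusted p = 0.000116). Of 9 genes of adipokines and their receptors tested 5 rose and none fell (median 0.61). Among the 5 was Adipor2, an adiponectin receptor, named after its values were seen (log2 fold change 0.61, limma adjusted p = 0.00104). Leptin (Lep) lay between 0 and 4.97 in the 6 libraries, was below the minimum level and was not tested. Cfd, the gene of adipsin, named after its values were seen, was at 306, 58.2 and 53.5 in vehicle and at 486, 215 and 463 with the combination. Those groups overlapped, and Cfd was called only with the replicate block (limma adjusted p = 0.0902 without it, 0.0021 with it).

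The enzymes that assemble triglyceride rose in 7 of 13 cases, with none lower and a median log2 fold change of 0.44. Gpat3, which adds the first acyl chain to glycerol phosphate, was at 220, 123 and 143 in vehicle and at 1039, 558 and 1450 with the combination (log2 fold change 2.58, SE 0.38, limma adjusted p = 0.00112). Dgat2, which adds the last acyl chain, was at 248, 116 and 174 and then at 1107, 564 and 1372 (2.46, adjusted p = 0.00248). Agpat2, which adds the second chain and is mutated in a congenital loss of fat tissue, was at 991, 698 and 778 and then at 3865, 2212 and 2828 (1.83, adjusted p = 0.000673). For these 3 genes every combination library was above every vehicle library.

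Lipogenesis, the making of fatty acids from sugar and amino acid carbon, also held genes that rose. Of 17 genes tested 7 rose and none fell (median 0.40), and 4 of them were called without combination replicate 1. Thrsp, a regulator of lipogenesis, was at 243, 61.6 and 33.7 in vehicle and at 1065, 560 and 592 with the combination (log2 fold change 3.13, limma adjusted p = 0.00554). Scd1, which puts the double bond into stearate and palmitate, was at 7057, 6100 and 3331 and then at 25881, 14667 and 9532 (1.55, adjusted p = 0.03). Without combination replicate 1 or 2 or vehicle replicate 2 or 3 the Scd1 call was lost (adjusted p 0.0589 to 0.188). Fasn, the fatty acid synthase, was at 8234, 8066 and 8022 and then at 15017, 12486 and 13534, a log2 fold change of 0.75 (SE 0.10, adjusted p = 0.000725). Named after its values were seen, Acly, which supplies the acetyl groups, was at 4105 ± 221 (SD, n = 3) in vehicle and 4943 ± 362 with the combination and did not pass the test (adjusted p = 0.265).

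Lipolysis genes had the highest median of the 36 pathway and function lists, 1.96, with 8 of 12 genes called higher and none lower. Lipe, the hormone-sensitive lipase, was at 817, 517 and 880 in vehicle and at 3421, 1983 and 3291 with the combination (log2 fold change 1.97, SE 0.28, limma adjusted p = 0.00101). Pnpla2, the triglyceride lipase ATGL, was at 2852, 2017 and 2755 and then at 9680, 6021 and 7303 (1.58, adjusted p = 0.000548). Both lipases were named after their values were seen, and both rose with no overlap. The 3 members with the largest fold changes had low counts. Adora1, an adenosine receptor that restrains lipolysis, was at 3.56, 0.856 and 0 in vehicle and at 27.4, 11.3 and 19.9 with the combination (3.25, adjusted p = 0.00179). Hcar1, the lactate receptor, was at 4.45, 1.71 and 4.65 and then at 37.5, 13.2 and 35.8 (2.64, adjusted p = 0.00805), and its call was lost without combination replicate 1 (adjusted p = 0.0639). Aqp7, the channel through which glycerol leaves adipocytes, was at 16.0, 5.14 and 8.14 and then at 79.1, 28.3 and 95.3 (2.63, adjusted p = 0.00514).

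The backbone of triglyceride can be made from pyruvate, and 6 of 15 genes of glyceroneogenesis and pyruvate handling rose, none fell (median 0.39). Pcx, the gene of pyruvate carboxylase, was at 5715, 5224 and 5616 in vehicle and at 16881, 12998 and 12383 with the combination, a log2 fold change of 1.34 (SE 0.12, limma adjusted p = 6.53e-05). Gpd1, which makes glycerol phosphate, was at 969, 256 and 180 and then at 4334, 1691 and 2786 (2.94, SE 0.58, adjusted p = 0.0068), a call lost without combination replicate 1 (adjusted p = 0.0571). Pck1, the key enzyme of glyceroneogenesis, was at 0.891, 0.856 and 0 in vehicle and at 20.3, 10.4 and 25.8 with the combination. That was an estimated 2 reads over the vehicle libraries and 57 over the combination libraries, a ratio of 29.4 at equal depth with an exact 95% interval of 7.78 to 249 that covers counting error only (limma adjusted p = 0.00264). Pdk4, the kinase that shuts off pyruvate oxidation and a known glucocorticoid target, was at 1764 ± 444 (SD, n = 3) in vehicle and 1604 ± 256 with the combination (adjusted p = 0.879).

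Insulin-responsive glucose uptake genes were among those that rose. Slc2a4, the gene of the glucose transporter GLUT4, was at 10.7, 5.99 and 5.81 in vehicle and at 73.0, 30.2 and 59.6 with the combination (log2 fold change 2.66, SE 0.51, limma adjusted p = 0.00563). Sort1, the gene of sortilin, which sorts GLUT4 into its storage vesicles, was at 472, 431 and 420 and then at 1494, 818 and 1232 (1.38, adjusted p = 0.00121). Trarg1, a regulator of GLUT4 traffic, was at 18.7, 20.5 and 33.7 and then at 86.2, 66.1 and 184 (2.07, adjusted p = 0.0227). The Trarg1 call was lost without combination replicate 1 or 3 or vehicle replicate 1 or 2 (adjusted p 0.0716 to 0.107). Of 20 genes of insulin signalling and glucose uptake, 6 rose and 1 fell (median 0.21), 7 and 2 with the replicate block, and 3 of the rises were called without combination replicate 1 or vehicle replicate 1. The gene that fell, named after its values were seen, was Grb14, an adaptor that inhibits the insulin receptor, at 372, 339 and 299 and then at 206, 203 and 204 (−0.71, adjusted p = 0.00265).

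In glycolysis, of 16 genes tested 1 rose (6.25%, against 3.86% over all genes) and none fell (median 0.12). With the replicate block 3 were called higher, against 8.03% over all genes. The gene that rose was Hk2, the hexokinase that traps glucose in the cell, at 1084, 1280 and 1035 in vehicle and at 2136, 2059 and 1838 with the combination (log2 fold change 0.83, SE 0.09, limma adjusted p = 0.000278). Pkm, the gene of pyruvate kinase, was at 24671 ± 2528 (SD, n = 3) and 26017 ± 1786, with overlap (adjusted p = 0.806). Among 11 genes of the pentose phosphate pathway and NADPH supply 3 rose (median 0.36), against 8 with the replicate block. Taldo1, a transaldolase, was at 1737, 1211 and 1634 and then at 2875, 2455 and 2779 (0.84, adjusted p = 0.00275). Me1, the malic enzyme that makes NADPH for lipogenesis, was at 1402, 1113 and 1096 and then at 2320, 1642 and 2223 (0.77, adjusted p = 0.00448).

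Many genes of mitochondrial fuel breakdown rose. In the citric acid cycle 12 of 17 genes rose and none fell (median 0.39). Idh3a, a subunit of the NAD-dependent isocitrate dehydrogenase, was at 1632, 1382 and 1475 in vehicle and at 4232, 2760 and 3721 with the combination (log2 fold change 1.24, SE 0.16, limma adjusted p = 0.000725). Cs, the citrate synthase that opens the cycle, was at 5688, 4782 and 4998 and then at 8259, 7031 and 7420 (0.55, adjusted p = 0.00398). In both genes the groups did not overlap. The count fell to 3 without combination replicate 1, 6 without combination replicate 3 and 7 without vehicle replicate 2.

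Breakdown of branched-chain amino acids, a source of lipogenic carbon in fat cells, had 12 of 23 genes higher and none lower (median 0.38). Bcat2, the mitochondrial transaminase of the first step, was at 1664, 1054 and 1724 in vehicle and at 3003, 2257 and 2937 with the combination (log2 fold change 0.91, limma adjusted p = 0.0106), and its adjusted p was 0.0733 without combination replicate 1. Bckdhb, a subunit of the dehydrogenase that commits the carbon, was at 568, 501 and 552 and then at 1003, 770 and 1041 (0.78, adjusted p = 0.00255). Aldh6a1, an enzyme of valine breakdown, was at 3040, 3233 and 3086 and then at 5512, 4759 and 5491 (0.75, adjusted p = 0.00159). Without combination replicate 1 the count was 5, without combination replicate 3 it was 6 and without vehicle replicate 2 it was 7.

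In mitochondrial fatty acid oxidation 12 of 19 genes rose and none fell (median 0.39), with 4 called without combination replicate 1, 5 without combination replicate 3 and 7 without vehicle replicate 2. Cpt2, which receives fatty acids inside the mitochondrion, was at 1129, 930 and 1139 in vehicle and at 1950, 1488 and 1922 with the combination (log2 fold change 0.74, limma adjusted p = 0.00391). Acadvl, which starts the oxidation of very long chains, was at 1804, 1587 and 1875 and then at 2862, 2346 and 2830 (0.61, adjusted p = 0.00382). Of 26 peroxisomal genes 8 rose and none fell (median 0.21), and 5 were called without combination replicate 1 or 3 or vehicle replicate 1. Pex11a, which divides peroxisomes, was at 438, 418 and 422 and then at 946, 707 and 853 (0.96, adjusted p = 0.000985). Crat, the carnitine acetyltransferase, was at 1970, 1737 and 1846 and then at 3647, 2761 and 3074 (0.76, adjusted p = 0.000973).

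In the respiratory chain, of 57 subunit genes in the nucleus 11 rose and none fell (median 0.27), and the replicate block called 22 higher. Without combination replicate 1 the count was 4, and without vehicle replicate 2 or 3 it was 7. Cyc1, the cytochrome of complex III, was at 1260, 992 and 1162 in vehicle and at 1989, 1737 and 1955 with the combination (log2 fold change 0.74, SE 0.11, limma adjusted p = 0.00151). Ndufc2, a subunit of complex I, was at 862, 656 and 881 and then at 1254, 1214 and 1344 (0.68, adjusted p = 0.00583). Cycs, the gene of cytochrome c, rose by 1.10 (adjusted p = 0.0032), but near-identical copies elsewhere in the genome make its count uncertain. Of the 13 protein-coding genes of the mitochondrial genome, none was called with limma in either direction, 0 had an unadjusted p under 0.05 and the median was 0.19. The difference between the nuclear and the mitochondrial genes was not tested. mt-Co1 was at 452519, 356658 and 495572 in vehicle and at 541131, 425634 and 546850 with the combination, with overlap.

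Cholesterol synthesis rose in 6 of 23 genes with none lower (median 0.41), and the replicate block called 17 higher. Single libraries carried most of that count: it was 2 without vehicle replicate 2 and 1 without combination replicate 1 or 3 or vehicle replicate 1 or 3. Cyp51, a demethylase of the sterol ring, was at 728, 517 and 813 in vehicle and at 1971, 1055 and 2510 with the combination (log2 fold change 1.36, limma adjusted p = 0.0397). Idi1, which makes the isoprene building block, was at 852, 818 and 865 and then at 1414, 1137 and 1654 (0.71, adjusted p = 0.0236). Both calls were lost in each fit without 1 library other than combination replicate 2 (adjusted p 0.0649 to 0.173 for Cyp51, 0.0603 to 0.108 for Idi1). Of 12 targets of the sterol receptor LXR 5 rose (median 0.36), and 3 were called without combination replicate 1 or 3 or vehicle replicate 1. Scarb1, the receptor that takes cholesterol from high-density lipoprotein, was at 260, 252 and 301 and then at 843, 619 and 829 (1.48, SE 0.15, adjusted p = 7.56e-05).

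**Figure D3:**
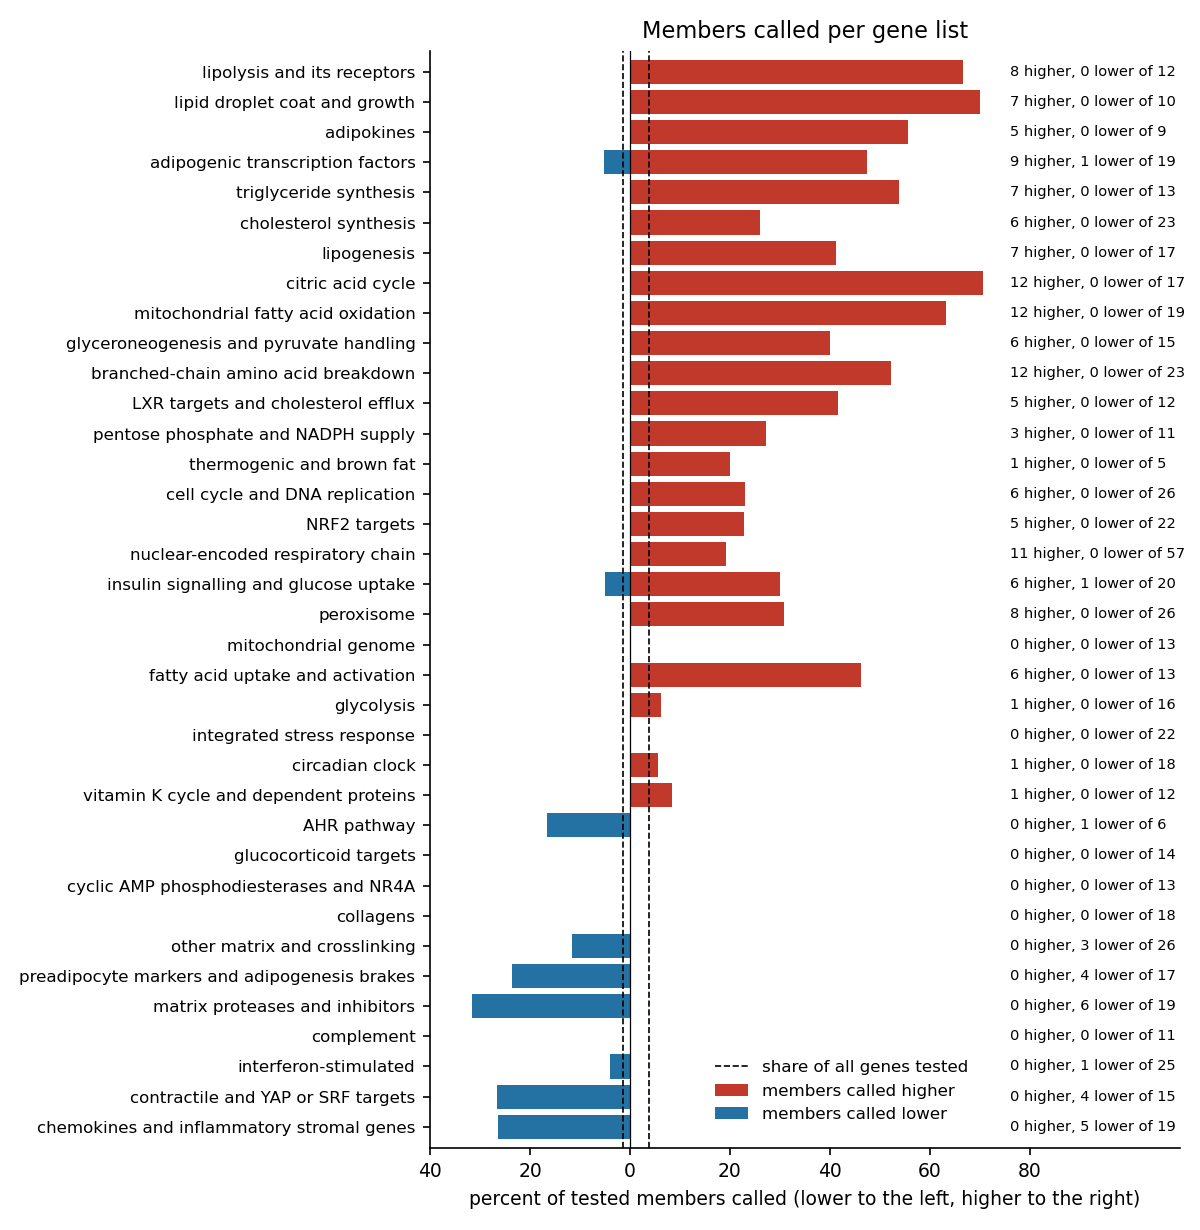
Percent of the tested members of 36 gene lists called higher (red, to the right) or lower (blue, to the left) with the combination, ordered by median log2 fold change, with the counts printed at the right. The dashed lines mark the shares over all genes tested, 3.86% higher and 1.36% lower. Lipid droplet and citric acid cycle lists have the longest red bars, and matrix proteases the longest blue bar.

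Several genes of the fibroblast side fell. The largest fall was that of Mmp3, a metalloproteinase that degrades matrix, at 342, 412 and 310 in vehicle and at 92.3, 100 and 98.3 with the combination. Its log2 fold change was −1.85 (SE 0.26, limma adjusted p = 0.000954), and its upstream window with an AP-1 match is printed above. Mmp9, a gelatinase, was at 142, 195 and 246 and then at 38.5, 94.5 and 67.5 (−1.58, adjusted p = 0.0122), a call lost without combination replicate 1 or vehicle replicate 3 (adjusted p 0.0618 to 0.089). Adamts2, which trims procollagen, was at 6757, 8066 and 8306 and then at 4426, 5269 and 5516 (−0.60, adjusted p = 0.0244), and without combination replicate 1 or vehicle replicate 2 or 3 it was not called (adjusted p 0.0816 to 0.153). Of 19 matrix proteases and inhibitors 6 fell and none rose (median −0.39), 9 and 1 with the replicate block, with 1 called without combination replicate 1 or vehicle replicate 3 and 3 without vehicle replicate 2. Outside this list, Plat, the tissue plasminogen activator, was at 1424, 1998 and 1931 and then at 671, 940 and 946 (−1.07, SE 0.19, adjusted p = 0.00297).

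**Figure D4:**
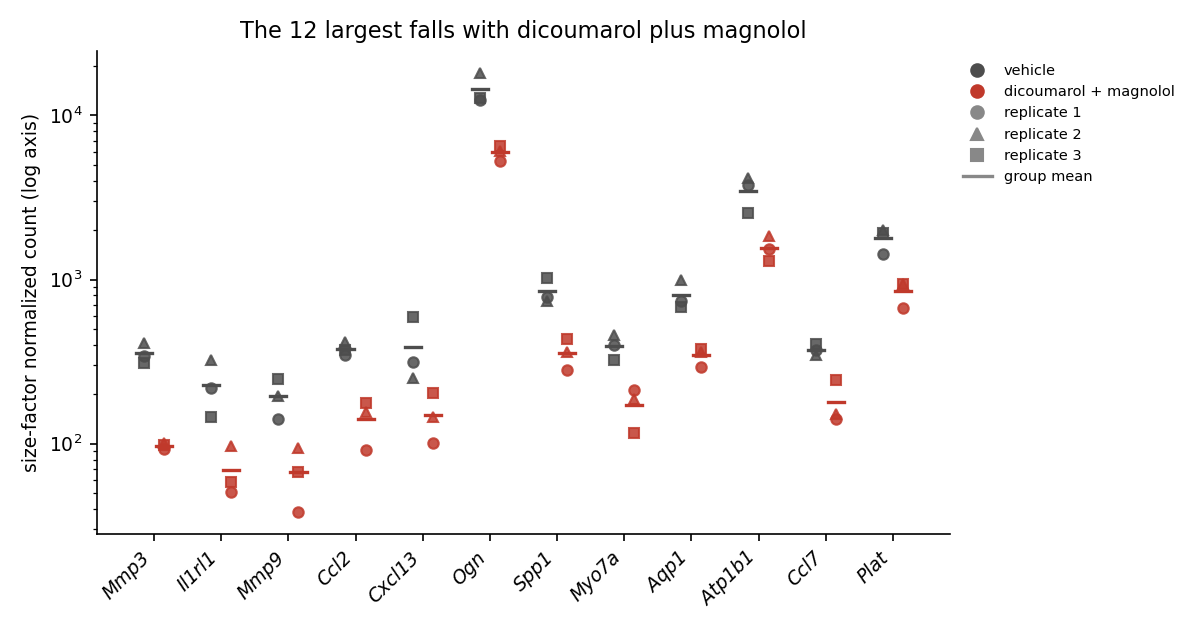
Size-factor normalized counts on a log axis for the 12 largest falls under the naming rule, with 1 symbol per library (grey vehicle, red dicoumarol plus magnolol; the shape gives the replicate number) and a bar at the group mean. All 3 red symbols lie below all 3 grey symbols for each gene, as the naming rule requires. The Mmp3 libraries with the combination sit between 92.3 and 100.

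Matrix proteins fell in a few members while the collagens did not pass the test. Ogn, the small proteoglycan osteoglycin, was at 12384, 18216 and 12802 in vehicle and at 5311, 6081 and 6489 with the combination (log2 fold change −1.26, SE 0.19, limma adjusted p = 0.00151). Dcn, the gene of decorin, which binds collagen fibrils, was at 2796, 3715 and 2548 and then at 1444, 1765 and 1601 (−0.90, adjusted p = 0.00694; 0.0537 without combination replicate 1). Sparc, a collagen-binding glycoprotein, was at 58556, 59089 and 57173 and then at 43504, 45853 and 47869 (−0.35, adjusted p = 0.0434). The groups of Sparc did not overlap, yet its call was lost in each of the 6 fits without 1 library (adjusted p 0.0785 to 0.206) and after quantile normalization (adjusted p = 0.197). Of 26 such genes 3 fell and none rose (median −0.31), 1 without combination replicate 1, while the replicate block called 11 lower and 1 higher. Of 18 collagen chains none was called with limma (median −0.13), 2 higher and 4 lower at an unadjusted p under 0.05. The block called 2 chains higher and 3 lower, against 8.03% and 5.48% over all genes. Col1a1, the main chain of type I collagen, was at 89652, 88329 and 110125 and then at 66994, 77232 and 82107 and was called only with the block (adjusted p = 0.216 without it, 0.017 with it).

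Chemokines and inflammatory genes of stromal cells fell in 5 of 19 cases with none higher (median −0.49), and the replicate block called 9 lower and 1 higher. The count was 2 without combination replicate 1 or vehicle replicate 1 and 3 without combination replicate 2 or vehicle replicate 2 or 3. Il1rl1, the receptor of interleukin-33, was at 219, 323 and 145 in vehicle and at 50.7, 97.3 and 58.6 with the combination (log2 fold change −1.70, SE 0.33, limma adjusted p = 0.00547). Ccl2, which attracts monocytes, was at 348, 414 and 373 and then at 91.3, 156 and 178 (−1.46, SE 0.22, adjusted p = 0.0012). Ccl7, a neighbouring chemokine gene of the same family, was at 373, 347 and 402 and then at 142, 151 and 243 (−1.10, adjusted p = 0.0245). It was not called without combination replicate 1 or 2 or vehicle replicate 1, 2 or 3 (adjusted p 0.0552 to 0.144). Cxcl13, which attracts B cells, was at 314, 251 and 594 and then at 100, 146 and 203 (−1.32, adjusted p = 0.0487), and lost its call without combination replicate 1 or 2 or vehicle replicate 1 or 3 (adjusted p 0.0824 to 0.256) and after quantile normalization (adjusted p = 0.051).

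Markers of macrophages and leukocytes were at 411 to 435 in sum in vehicle and 289 to 339 with the combination. Of the 4 tested, 2 were called lower with the replicate block and 1 without it: Lyz2, a lysozyme, at 160, 171 and 153 in vehicle and at 81.1, 91.7 and 120 with the combination (log2 fold change −0.74, limma adjusted p = 0.0395), a call lost in each fit without 1 library other than combination replicate 3. Itgam, an integrin of myeloid cells, was at 0 in 5 of the 6 libraries and at 1.16 in the other. The part of such cells in the chemokine values was not tested.

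Complement and interferon genes were mostly below the calling threshold. None of 11 complement genes was called with limma (median −0.44), 1 higher and 5 lower at an unadjusted p under 0.05, and the replicate block called 1 higher and 5 lower. Of 25 interferon-stimulated genes 1 fell (4%, against 1.36% over all genes) and none rose (median −0.45). At an unadjusted p under 0.05, 1 was higher and 9 were lower. The log2 fold change was below 0 for 23 and above 0 for 2, where 48.2% of all genes lay above 0. The groups did not overlap for 11 with the combination below and 1 with it above, against 9.44% and 11.5% over all genes. The block called 5 lower and 1 higher, against 5.48% lower and 8.03% higher over all genes. The gene that fell, Bst2, which tethers budding viruses, was at 474, 341 and 488 in vehicle and at 252, 337 and 265 with the combination (log2 fold change −0.60, limma adjusted p = 0.0268). Its call was lost without combination replicate 1 or 3 or vehicle replicate 1 or 3 (adjusted p 0.0958 to 0.155), and the list's count was 0 without combination replicate 1 or 3 or vehicle replicate 3 and 2 without combination replicate 2. Vehicle replicate 2 lay close to combination replicate 2 for this gene.

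Preadipocyte genes and brakes on adipogenesis fell in 4 of 17 cases with none higher (median −0.36); the replicate block called 9 lower and 1 higher. The count was 1 without combination replicate 1 and 2 without vehicle replicate 1 or 2. Anxa3, an annexin that restrains fat cell formation, was at 1573, 1527 and 1260 in vehicle and at 830, 840 and 833 with the combination (log2 fold change −0.79, SE 0.09, limma adjusted p = 0.000349). Dlk1, the membrane protein that marks preadipocytes and holds back differentiation, was at 27581, 19864 and 23620 and then at 13972, 18400 and 12794 (−0.66, adjusted p = 0.0148). Replicate 2 was the lowest vehicle library and the highest combination library for Dlk1, and the call was lost without combination replicate 1 or 3 or vehicle replicate 1 (adjusted p 0.0714 to 0.0893).

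Contractile genes and targets of YAP or SRF fell in 4 of 15 cases with none higher (median −0.48), 7 with the replicate block and 2 without combination replicate 1 or 3 or vehicle replicate 1 or 2. Tpm1, the gene of a tropomyosin, was at 6068, 6574 and 5013 in vehicle and at 3148, 3907 and 3292 with the combination (log2 fold change −0.77, SE 0.13, limma adjusted p = 0.00237). Cnn2, a calponin that binds actin, was at 5010, 5389 and 4715 and then at 2429, 3439 and 2896 (−0.80, adjusted p = 0.00582; 0.0529 without combination replicate 1). Acta2, the smooth muscle actin of myofibroblasts, was at 5383, 4354 and 2756 and then at 2078, 2243 and 1508 (−1.07, adjusted p = 0.0425). Its call was lost in each fit without 1 library other than vehicle replicate 3 (adjusted p 0.0547 to 0.165).

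Other large falls lay outside the lists. Spp1, the gene of the secreted phosphoprotein osteopontin, was at 787, 744 and 1015 in vehicle and at 281, 360 and 434 with the combination (log2 fold change −1.25, SE 0.17, limma adjusted p = 0.000811). Aqp1, a water channel, was at 744, 993 and 681 and then at 294, 364 and 376 (−1.21, adjusted p = 0.0012). Atp1b1, a subunit of the sodium pump, was at 3784, 4129 and 2528 and then at 1530, 1848 and 1301 (−1.14, adjusted p = 0.0144), and lost its call without combination replicate 1 or 3 or vehicle replicate 1 or 2 (adjusted p 0.0562 to 0.0689). Myo7a, an unconventional myosin, was at 400, 461 and 322 and then at 213, 188 and 116 (−1.22, adjusted p = 0.0121), and lost its call without combination replicate 3 or vehicle replicate 2 (adjusted p 0.0576 to 0.062).

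The RNA of the known enzyme targets of dicoumarol did not pass the test. Nqo1 was at 1309, 1457 and 1153 in vehicle and at 1323, 1621 and 1138 with the combination, with overlap (log2 fold change 0.05, SE 0.18, limma adjusted p = 0.943). Vkorc1, the vitamin K epoxide reductase, was at 838, 611 and 1136 and then at 663, 743 and 752 (−0.22, SE 0.17, adjusted p = 0.58). These tests do not show that the levels were equal. Of 12 genes of the vitamin K cycle and its dependent proteins 1 rose (8.33%, against 3.86% over all genes) and none fell (median 0.00). With the replicate block 2 were called higher and 1 lower, against 8.03% higher and 5.48% lower over all genes. The gene that rose was Aifm2, also called FSP1, an oxidoreductase that reduces vitamin K and coenzyme Q, at 1554, 1591 and 1570 in vehicle and at 2394, 2275 and 2104 with the combination (0.52, SE 0.09, adjusted p = 0.00229). Its upstream window, with 2 half-sites, is printed above.

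Of 22 targets of NRF2, the regulator of antioxidant genes, 5 rose and none fell (median 0.30), and the replicate block called 10 higher and 2 lower. The block's shares over all genes were 8.03% higher and 5.48% lower. The count was 2 without combination replicate 1 or 3 or vehicle replicate 2 and 3 without combination replicate 2 or vehicle replicate 3. The targets include Taldo1 and Me1, given above as NADPH genes. Cbr1, a carbonyl reductase, was at 733, 562 and 713 in vehicle and at 1046, 953 and 944 with the combination (log2 fold change 0.56, limma adjusted p = 0.0441). The Cbr1 call was lost in each of the 6 fits without 1 library (adjusted p 0.0579 to 0.194) and after quantile normalization (adjusted p = 0.0776). Of 6 genes of the aryl hydrocarbon receptor pathway 1 fell, Aldh3a1, an aldehyde dehydrogenase, at 378, 402 and 410 and then at 240, 281 and 278 (−0.58, adjusted p = 0.0125; 0.089 without combination replicate 1); the block called 1 higher and 2 lower.

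Stress and hormone-response lists held few or no calls. None of 22 genes of the integrated stress response was called with limma (median 0.04), 3 higher at an unadjusted p under 0.05, and the replicate block called 3 higher. Over all genes the block called 8.03% higher and 5.48% lower. Trib3, a pseudokinase induced by this response, was at 314, 823 and 385 in vehicle and at 277, 805 and 272 with the combination, so that replicate 2 was high in both groups. None of 14 glucocorticoid targets was called (2 higher unadjusted, 2 higher and 1 lower with the block), and Fkbp5, a chaperone induced by dexamethasone, was at 28654 ± 2459 (SD, n = 3) in vehicle and 32023 ± 2324 with the combination. None of 13 cyclic AMP phosphodiesterase and NR4A genes was called with limma, 1 lower unadjusted and none with the block.

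Of 26 genes of the cell cycle and DNA replication 6 rose and none fell (median 0.31), and the replicate block called 9 higher and 2 lower. Over all genes the block called 8.03% higher and 5.48% lower. Mcm5, a subunit of the replicative helicase, was at 585, 551 and 400 in vehicle and at 854, 926 and 705 with the combination (log2 fold change 0.70, limma adjusted p = 0.0223), and was not called without combination replicate 1 or 2 or vehicle replicate 3 (adjusted p 0.0802 to 0.107). The list's count was 1 without combination replicate 1 or 3 or vehicle replicate 2, 2 without combination replicate 2 and 0 without vehicle replicate 3. Of 5 thermogenic genes tested 1 rose, Ebf2, a factor of brown and beige precursors, at 280, 293 and 254 and then at 437, 445 and 470 (0.71, adjusted p = 0.00251). Ucp1, the uncoupling protein of brown fat, lay between 0 and 1.71 in the 6 libraries and was not tested.

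The combination was next set beside each compound alone. These comparisons share the combination libraries, and the treatment values against vehicle share the vehicle libraries. Against magnolol alone no gene was called with limma (0% of genes tested; 336 had an unadjusted p under 0.05, 0 were called with the replicate block, smallest adjusted p with it 0.0577). Cidec was 0.60 higher with the combination than with magnolol on the log2 scale (SE 0.53), Fabp4 0.65 higher (SE 0.32) and Plin1 0.38 higher (SE 0.38). Of the 607 genes called higher against vehicle, 596 were above their level with magnolol, by a median of 0.18, and of the 214 called lower, 208 were below it, by a median of −0.20; because the genes were chosen on the combination libraries these are descriptions.

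Against dicoumarol alone 4 genes were called, all higher with the combination (0.0254% of genes tested), and 569 with the replicate block (3.62%). Of the 4, 3 have a symbol: Pcx, Scarb1 and Fitm2, a droplet assembly protein. Pcx was at 8661, 6711 and 8445 with dicoumarol and at 16881, 12998 and 12383 with the combination (0.82 higher, SE 0.12, limma adjusted p = 0.025). Scarb1 was 0.95 higher (SE 0.15) and Fitm2 0.80 higher (SE 0.12), both with an adjusted p of 0.0313. None was called without combination replicate 1 or 3 or dicoumarol replicate 2 or 3, and 46 genes were called without combination replicate 2. No call was made when the fit held only these groups or no variance trend.

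An interaction contrast tested whether both compounds together gave the sum of their single log2 changes. With limma 0 genes were called, 78 had an unadjusted p under 0.05 and 0 were called with the replicate block (smallest adjusted p with it 0.765). For Cidec the changes over vehicle were 2.21 with dicoumarol, 3.98 with magnolol and 4.58 with both, a departure of −1.61 from the sum (SE 0.76). For Plin1 they were 1.65, 3.06 and 3.45 (departure −1.27, SE 0.54). For Mmp3 they were −0.65, −1.46 and −1.85 (departure 0.25, SE 0.37). For Ccl2 they were −0.59, −0.79 and −1.46 (departure −0.08, SE 0.31).

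**Figure D5:**
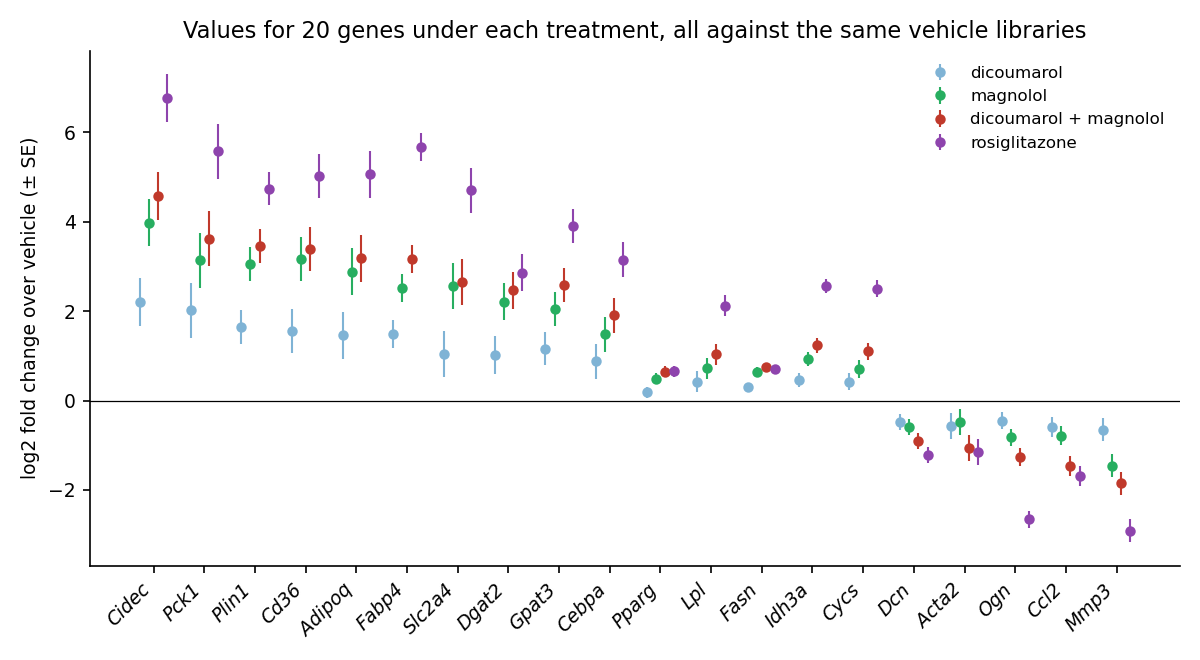
Log2 fold change over vehicle (± SE from the model, 3 libraries per group) for 20 genes with dicoumarol, magnolol, both compounds and rosiglitazone; all 4 share the vehicle libraries. For Cidec the points sit at 2.21, 3.98, 4.58 and 6.77, and for Mmp3 at −0.65, −1.46, −1.85 and −2.91.

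The rosiglitazone libraries give a scale for these values. Over vehicle, Fabp4 was 3.17 higher with the combination and 5.68 higher with rosiglitazone, and Adipoq was 3.18 and 5.06 higher. For Pparg both differences were 0.65, and for Fasn they were 0.75 and 0.70. Ogn was lower by −1.26 and −2.66, and Ccl2 by −1.46 and −1.69. The differences between the combination and rosiglitazone were not tested here.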

How the data were processed

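The 15 mouse 3T3-L1 libraries were analysed, and the porcine libraries were not used here. Libraries of polyadenylated RNA kept strand information through dUTP, per the labels' protocols. The authors deposited a signal per gene and library, which the labels' file description calls DESeq2 normalized counts. The submitters' processing notes name bcl2fastq 2.19.1.403, STAR, DESeq2 and GRCm38; neither the counting tool nor the annotation release is given in the sources used here. Of 24070 genes matched to a GRCm38 annotation only 2.18% had the listed start, so the table's coordinates are not printed. Values are not per length, and levels are not compared between genes except within marker sums. Those sums, and the gene said to make up most of a sum, are not corrected for gene length.

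Among values of 20 reads or fewer, 81.8% to 83.0% per library were whole multiples of 1 read (tolerance 0.02), so no count test was run. The test set was 15723 of 24843 genes, those whose mean over the 15 libraries reached 10. On log2(value + 1), limma 3.58.1 (R 4.3.3) fitted all 5 groups in 1 model, with a variance trend. Fold changes on this scale understate the change of low genes. The fit was tested on simulated data with independent noise per library. That test does not cover deviations shared by libraries with the same replicate number. Python 3.11.15, numpy 2.4.6, pandas 2.3.3 and matplotlib 3.10.9 made tables and plots.

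The labels number replicates 1 to 3 in each group. Deviations from the group means of the same-numbered vehicle and combination libraries correlated at 0.188, 0.246 and 0.306, and at −0.171 to −0.0301 for different numbers; over all groups the 30 same-numbered pairs lay between 0.106 and 0.462. Deviations cancel out within a group, so positive values for same numbers make those for different numbers negative on balance. The negative values are thus no separate support. By the same-numbered values, the numbers pair the libraries. The fits that left out 1 library held no replicate block. Whether the calls lost in them are also lost with the block was not tested. The blocked value is printed where it changes a call or moves a count by over 1.5 times. No replicate pair was a repeated library: their chi-square per gene was 15.9 to 52.2, where sampling noise alone gives about 1.

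Named genes had a symbol of their own, no overlap between groups, a mean of 100 or more and an adjusted p under 0.05, and were the 12 that rose most and the 12 that fell most; 3 members per list (called members by size of change, then uncalled ones by mean) and the panel Pparg, Cebpa, Cebpb, Adipoq, Fabp4, Lpl, Slc2a4, Nqo1, Vkorc1, Col1a1, Pdk4, Trib3, Lep and Ucp1 were added. Other genes are said to be named after their values were seen. The comparison, the lists and the panel were chosen with earlier results of these data known. Some results are not reported here.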

Additional observations from a re-analysis of the deposited data

How the results depend on the processing

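With the replicate block the combination against vehicle gave 2124 calls, 1262 higher and 862 lower, against 821, 607 and 214 without it. The fits without 1 library, which held no block, gave 286 to 722 calls, 227 to 547 higher and 59 to 175 lower. The lone remaining pair of a group was assumed to vary like the other groups. Other settings gave 617 (no variance trend) to 833 (pseudocount 10). Against dicoumarol alone 4 calls became 569 with the replicate block, 8 after quantile normalization and 0 with no variance trend or with only the groups compared, and 0 to 46 without 1 library. Against magnolol alone and for the departure from the sum, the number stayed at 0 in each of these fits. Of 121 named genes tested, the setting without a variance trend ended 14 calls, no filter on low values 7, only the groups compared 4, quantile normalization 3 and pseudocount 10 1; the block ended 0 and added 7. Leaving out combination replicate 1 ended 34. Values below about 10 normalized counts, as for Pck1 in vehicle, rest on few reads.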

Other observations

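Genes outside the lists, named after their values were seen, moved in both directions. Several receptors and membrane proteins rose. Mc5r, a melanocortin receptor, was at 47.2, 20.5 and 31.4 in vehicle and at 339, 154 and 229 with the combination (log2 fold change 2.83, limma adjusted p = 0.000934). Mc2r, the corticotropin receptor, was at 8.91, 3.42 and 13.9 and then at 58.8, 33.1 and 50.7 (2.44, adjusted p = 0.00433). Mrap, its accessory protein, was at 56.1, 12.0 and 9.30 and then at 224, 102 and 134 (2.89, adjusted p = 0.0144), a call that 3 of the 6 fits without 1 library did not make. Prlr, the prolactin receptor, was at 47.2, 23.1 and 30.2 and then at 187, 86.9 and 181 (2.12, adjusted p = 0.00153). Noct, a phosphatase with a daily rhythm in many tissues, was at 234, 212 and 227 and then at 1035, 518 and 817 (1.76, adjusted p = 0.000702).

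Several secreted proteins and surface proteins of stromal cells fell. Plau, the urokinase plasminogen activator, was at 153, 172 and 205 in vehicle and at 48.7, 78.4 and 72.5 with the combination (log2 fold change −1.41, limma adjusted p = 0.00115). Il18rap, a subunit of the interleukin-18 receptor, was at 76.6, 75.3 and 80.2 and then at 18.3, 28.3 and 19.9 (−1.78, adjusted p = 0.0019). Apod, a lipocalin that carries small lipids, was at 7314, 7968 and 7266 and then at 3912, 4251 and 3603 (−0.94, adjusted p = 0.00464). Sfrp2, a secreted modulator of Wnt signalling, was at 828, 841 and 906 and then at 372, 497 and 595 (−0.84, adjusted p = 0.00382). Adm, the gene of adrenomedullin, was at 400, 414 and 373 and then at 205, 242 and 181 (−0.93, adjusted p = 0.0032). For these 10 genes the 3 combination libraries lay on one side of the 3 vehicle libraries.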
